A study of Caenorhabditis elegans with 2 samples.

Results

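The vacuolar proton ATPase (V-ATPase) genes of Caenorhabditis elegans described here are vha-1, vha-2, vha-3, vha-5, vha-6, vha-8, vha-11, vha-12, vha-13 and vha-15, which are 10 of the 22 genes annotated by name or product as V-ATPase subunits or accessory proteins, among 19973 protein-coding genes. They were chosen by name with the promoter peaks of these data already known, so how many of them carry a peak is a description and supports nothing. The binding data came from chromatin immunoprecipitation and sequencing (ChIP-seq) of the protein encoded by K11D2.4, which was assayed as a transcription factor. The strain RW12320 carries TY1, EGFP and 3xFLAG tags inserted by CRISPR at the K11D2.4 locus, and the immunoprecipitation used an antibody against GFP. The single group held 2 biological replicates of whole young adults, aged 62 hours from starved first-stage larvae, so that all tissues of the animal were mixed, and chromatin was sheared to 200 to 800 bp. Both replicates carry the same tagged allele, and a control of untagged animals or of input DNA was not analysed here. There was therefore no second group to test against, and all values below are descriptions.

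The V-ATPase is a rotary pump that moves protons across membranes at the cost of ATP. Its peripheral V1 sector splits ATP: subunits A and B form the head, E belongs to the stalks that hold the head still, C joins the stalks to the membrane part, and H, as known from yeast, inhibits ATP splitting when V1 is detached. Its membrane V0 sector carries the protons, through a ring of c subunits that turns against subunit a. The pump acidifies lysosomes and endosomes, and in the worm it is known for work in the excretory canal cell, the intestine and the epidermis.

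Of the 10 genes, 4 had a promoter peak in the conservative list of reproducible peaks made from both replicates, called the pooled list below. These were vha-12, vha-8, vha-13 and vha-1. A promoter peak is one whose summit, the authors' point of highest signal, lies from 1000 bp upstream to 200 bp downstream of a transcript start. The same list gave a promoter peak to 1154 of all 19973 coding genes (5.78%). The authors' signal, the height the lists assign to a peak, was 168.3 at vha-12, 143.6 at vha-8, 94.46 at vha-13 and 89.06 at vha-1, against a median of 107.0 and quartiles of 81.86 and 157.0 over all 997 promoter peaks of that list. The first pair thus lay above that median and the second pair below it, and none reached the top of the range, which ended at 1396 over all peaks. The replicates' own thresholded lists shared vha-12 alone among the 10 genes.

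The sequence under 3 of these 4 summits and under the replicate 1 peak of vha-11 is printed here, because these are the bases nearest to where the signal was highest. Each run holds 101 bases, 50 on either side of the summit, on the coding strand of the gene, 5′ to 3′, read from the reference genome ce11. Capitals mark CGCAGA and ACGCAG, 6-base words that an earlier analysis of these data found to be frequent at its peak centres, and TGATAA, the site of GATA factors that act in the intestine. Lower case marks all other bases. The summit of vha-13 lies in an untranslated exon of its upstream neighbour and its bases are described by their composition only.
vha-12, pooled list, chrX:4190709-4190809, plus strand: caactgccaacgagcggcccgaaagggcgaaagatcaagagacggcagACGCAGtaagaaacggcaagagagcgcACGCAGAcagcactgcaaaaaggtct
vha-8, pooled list, chrIV:6790605-6790705, plus strand: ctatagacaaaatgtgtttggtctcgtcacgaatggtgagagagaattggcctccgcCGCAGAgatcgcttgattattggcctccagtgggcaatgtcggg
vha-1, pooled list, chrIII:9780787-9780887, plus strand: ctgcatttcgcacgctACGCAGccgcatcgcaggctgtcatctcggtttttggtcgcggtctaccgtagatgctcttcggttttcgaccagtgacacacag
vha-11, replicate 1 list, chrIV:2314333-2314433, minus strand: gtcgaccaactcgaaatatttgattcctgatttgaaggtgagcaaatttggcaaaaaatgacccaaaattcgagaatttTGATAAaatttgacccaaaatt

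The lists were deposited on ce11, with peaks scored by the irreproducible discovery rate (IDR), which measures how well the rank of a peak repeats between replicates or between parts of 1 replicate. The pooled list held 1927 peaks with a lowest score of 830 on a scale that ended at 1000. The thresholded lists of replicate 1 and replicate 2 held 959 and 1141 peaks. Beneath them lie ranked lists, which also hold peaks that did not pass, with 41734 peaks in replicate 1, 42705 in replicate 2 and 72582 in the pooled data. The sources used here give no read numbers, so depth is unknown, and signal is compared only within a list or, with that limit, between the replicates.

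**Figure D1:**
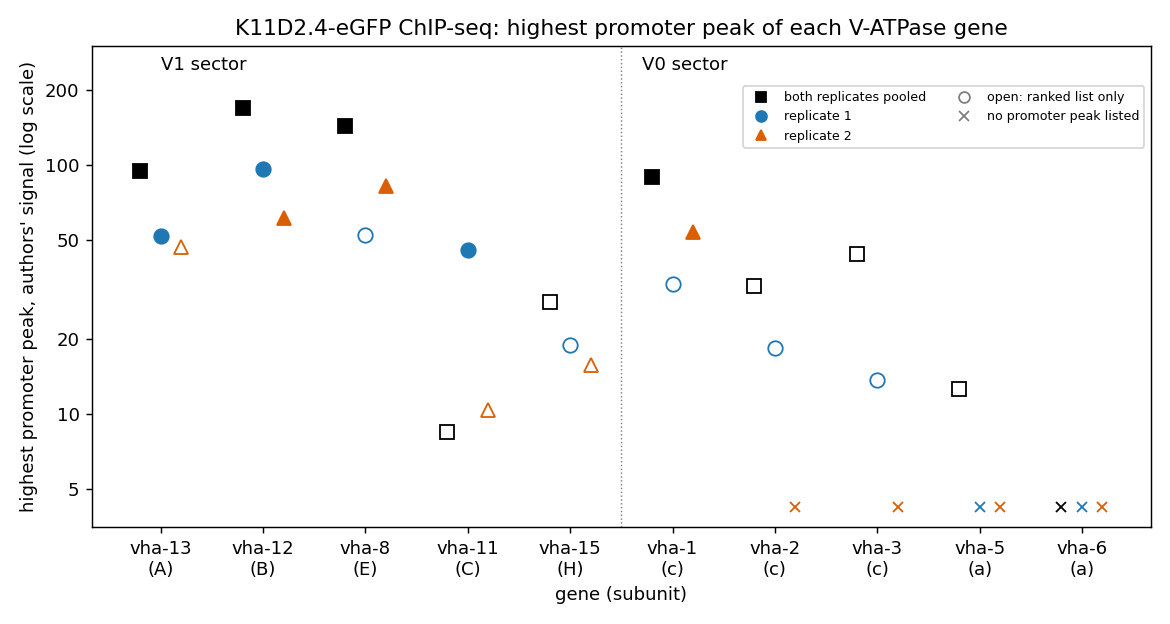
Highest promoter peak of each of the 10 V-ATPase genes, as the authors' signal on a log scale, with V1 genes on the left and V0 genes on the right. Squares are both replicates pooled, circles replicate 1 and triangles replicate 2. Filled markers are in a thresholded list, open markers in a ranked list only, and crosses mark no promoter peak. vha-12 alone is filled in all 3 columns, vha-11 is filled in replicate 1 only, and vha-6 has crosses only.

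In the V1 sector, vha-12 encodes subunit B, the nucleotide-binding partner of the catalytic subunit (WBGene00006921, chrX:4191094-4193144, plus strand). Its peak spanned chrX:4190597-4190920 with the summit 335 bp upstream of the start, between genes, and no other start was nearer than that of mrp-6, 4003 bp away. The peak ranked 346 of 1927 by signal and was higher than 78.0% of pooled promoter peaks. In replicate 1 the signal was 96.34, rank 265 of 959, and in replicate 2 it was 61.07, rank 711 of 1141. The replicate summits lay 329 and 337 bp upstream, and every list gave this peak a score of 1000. A second peak farther up passed no threshold: it had a signal of 51.38 at 881 bp upstream in the pooled ranked list, 29.6 at 932 bp in replicate 1 and 28.57 at 920 bp in replicate 2.

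The gene vha-8 encodes subunit E, a peripheral stalk protein (WBGene00006917, chrIV:6791074-6792455, plus strand). Its pooled peak, chrIV:6790493-6790816, ranked 480 of 1927 and was higher than 70.3% of promoter peaks. The summit lay 419 bp upstream of vha-8 but only 167 bp upstream of C17H12.2, a gene on the opposite strand that starts from the same intergenic region, so the peak cannot be given to 1 of the 2 genes by position. Replicate 2 had the peak in its thresholded list, with a signal of 81.9 and a summit 439 bp upstream. In replicate 1 a signal of 52.23 stood 377 bp upstream in the ranked list only, where it ranked 1030 of 41734 by signal but had a score of 41. By signal this peak was thus among the higher ones of replicate 1, while its score was near the bottom of the scale.

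The catalytic subunit A is encoded by vha-13 (WBGene00013025, chrV:14351709-14354422, plus strand). Its pooled peak, chrV:14351021-14351344, ranked 1081 and was higher than 40.1% of promoter peaks. The summit lay 526 bp upstream, inside an untranslated exon of cept-2, the gene before it on the same strand. Replicate 1 listed the peak above its threshold with a signal of 51.53, a score of 899 and a summit at 497 bp upstream, near the end of its list at rank 847 of 959. Replicate 2 had a signal of 46.64 and a score of 682 at 520 bp upstream, in its ranked list only. The levels of the replicates were close while their scores fell on either side of the threshold.

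A peak at vha-11, subunit C (WBGene00006920, chrIV:2307815-2314567, minus strand), was in the thresholded list of replicate 1 and not in the pooled list. It spanned chrIV:2314235-2314530 with its summit in an intron, 184 bp downstream of the start. Its signal of 45.28 and score of 835 put it at rank 903 of 959, just past the threshold. Replicate 2 listed 10.32 at 173 bp downstream, with a score of 43, and 21.01 at 403 bp downstream, outside the promoter window, with a score of 452. The pooled ranked list held 64.86 at 216 bp downstream, just outside the promoter window, with a score of 60, and inside the window only 8.432 at 12 bp upstream. The high value of replicate 1 was therefore not matched in replicate 2.

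The last V1 gene, vha-15, encodes an H subunit (WBGene00020507, chrX:2237911-2240255, plus strand). It had promoter peaks in ranked lists only, the highest of them 28.11 in the pooled data at 212 bp upstream, 18.9 in replicate 1 at 329 bp and 15.74 in replicate 2 at 309 bp. Among coding genes with a promoter peak, the highest signal per gene had medians of 34.3, 22.49 and 21.22 in those lists. The vha-15 values lay below each of these medians. Against the medians of all promoter peaks, 26.49, 20.05 and 18.76, the pooled value was higher and the replicate values were lower. The nearest pooled-list peak, with a signal of 206.5, was 5104 bp downstream of the vha-15 start and 100 bp upstream of the gene AH9.7.

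In the V0 sector, the gene vha-1 encodes a c subunit of the proton-carrying ring (WBGene00006910, chrIII:9781254-9781763, plus strand). Its pooled peak, chrIII:9780675-9780998, ranked 1190 and was higher than 34.6% of promoter peaks. The summit lay 417 bp upstream of vha-1 and 483 bp upstream of sqv-3 on the opposite strand, an intergenic region shared much as at vha-8. Replicate 2 held the peak above its threshold, with a signal of 53.85, a score of 1000 and a summit at the same base. Replicate 1 had 33.23 with a score of 280 at 427 bp upstream, in its ranked list only. Among the 4 genes in the pooled list, vha-1 was the one with the lowest signal and the only score under 1000, at 890. Of the 6 genes outside the pooled list, the highest promoter score in the pooled ranked list was 164, at a vha-3 peak that lay nearer to other starts.

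The neighbour of vha-1 on the same strand is vha-2, another c subunit gene (WBGene00006911, chrIII:9782164-9783224), with 400 bases between them. The vha-1 peak stood 1327 bp upstream of vha-2, outside its promoter window. Within the window, the pooled ranked list held 4 peaks. The highest, 32.5 at 734 bp upstream, was inside a coding exon of vha-1 and nearer to the vha-1 start, 176 bp away. The others were 31.05 at 60 bp, 7.355 at 527 bp and 4.016 at 321 bp upstream. Replicate 1 held 18.34 at 55 bp downstream and replicate 2 held none. The third c gene, vha-3 (WBGene00006912, chrIV:2315460-2315945, minus strand), lies 892 bases upstream of vha-11 on the same strand. Its pooled ranked peaks were 43.75 at 973 bp upstream, inside the untranslated exon of Y38F2AL.12, and 28.77 at 116 bp upstream. The first of these summits lay nearer to the starts of the noncoding RNA Y38F2AL.10, 24 bp away, and of Y38F2AL.12 than to that of vha-3. Replicate 1 had 13.66 at 117 bp upstream and replicate 2 none. Both tandem pairs thus had a thresholded peak at 1 of their genes only, vha-1 in the pooled list and vha-11 in the list of replicate 1 alone. No peak at vha-2 or vha-3 passed a threshold. Whether a peak at 1 gene of a pair also serves the other was not tested.

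Of the 10 genes, vha-5 and vha-6, which encode forms of subunit a, the part that the ring turns against, had the fewest listed peaks. At vha-5, which serves the excretory canal and the epidermis (WBGene00006914, chrIV:8303968-8307371, plus strand), the pooled ranked list held 12.53 at 557 bp and 6.936 at 327 bp upstream, and neither replicate had any peak. At vha-6, the intestinal form (WBGene00006915, chrII:11435210-11438452, minus strand), none of the 7 lists used held a promoter peak. Their nearest pooled-list peaks were 50929 bp upstream of vha-5 and 14758 bp upstream of vha-6. No listed peak means no peak above the authors' floor at an unknown depth; it does not show that the protein is absent from these promoters.

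By sector, a pooled-list promoter peak was found at 3 of the 5 V1 genes chosen and 1 of the 5 V0 genes. Over all 22 V-ATPase genes this became 3 of 10 V1 genes, 1 of 10 V0 genes and 0 of the 2 accessory genes vha-19 and vha-20. These are the same 4 genes, 18.2% of the 22. The count was also 4 in the second pooled list, where 5.97% of coding genes had a promoter peak. It was 3 in the list of replicate 1, with vha-11, vha-12 and vha-13 against 3.39% of coding genes, and 3 in that of replicate 2, with vha-1, vha-8 and vha-12 against 4.08%. Since the genes were chosen with these peaks known, nothing is read from the distance between their shares and those of all genes.

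Most of these genes had some lower-ranked peak, as had a large part of all genes. Of the 10 genes, 8 had a promoter peak in the ranked list of replicate 1, against 45.1% of coding genes. In replicate 2 it was 6 of 10, against 46.4%, and in the pooled ranked list 9 of 10, against 58.0%. The highest promoter signal of the 4 genes in the pooled ranked list was above that of 98.5% of coding genes for vha-12, 97.9% for vha-8, 96.0% for vha-13 and 95.6% for vha-1. The corresponding shares in replicate 1 were 98.8%, 96.4%, 96.3% and 91.0%, and in replicate 2 they were 97.1%, 98.3%, 95.4% and 96.4%. The 4 genes were singled out by the pooled list, which is part of the pooled ranked list and was made from both replicates. Their high shares follow from that choice and are not a result about these genes. The order of these genes by signal differed between the replicates: vha-12 was highest in replicate 1 and vha-8 in replicate 2. The other genes with a peak stood between 42.9% for vha-11 and 82.0% for vha-3 in the pooled ranked list. The vha-11 value leaves out its peak just past the window, and the vha-3 value comes from a peak nearer to other starts. All these shares count genes without a promoter peak as lower. Such genes numbered 8389 of 19973 in the pooled ranked list, 10963 in replicate 1 and 10715 in replicate 2. The 42.9% of vha-11 and the 44.2% of vha-5 are therefore near the low end of the genes that have a peak.

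**Figure D2:**
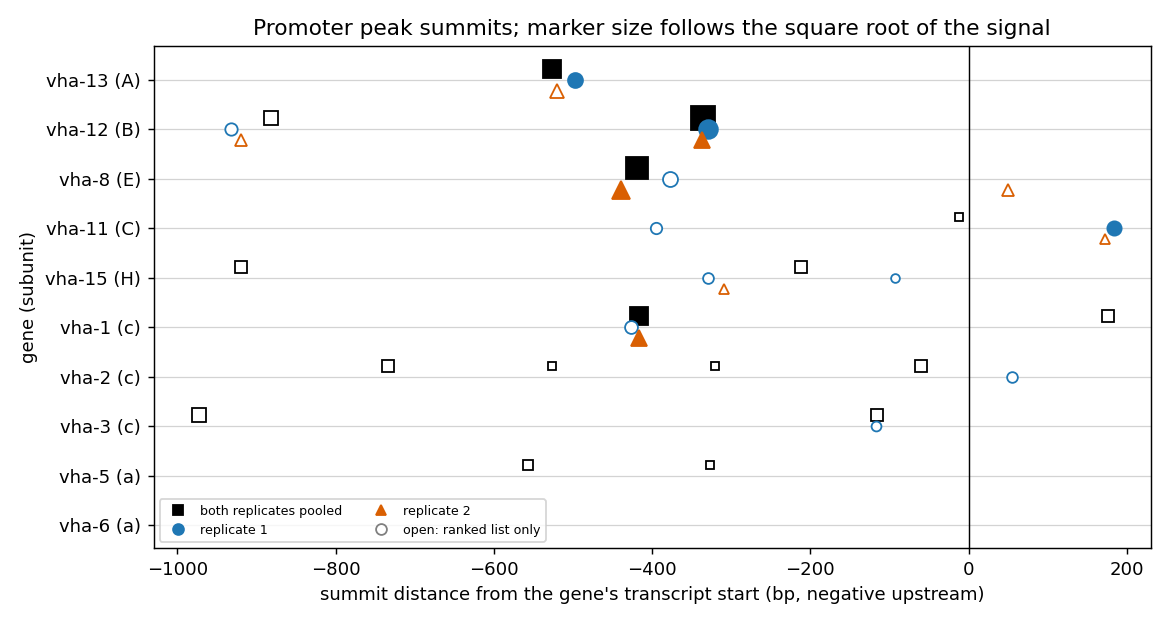
Position of each promoter peak summit relative to the transcript start of its gene, in bp, with upstream negative. Rows are the V-ATPase genes; squares, circles and triangles are the pooled data, replicate 1 and replicate 2, filled in thresholded lists and open in ranked lists only, with marker area following the signal. The filled squares of vha-13, vha-12, vha-8 and vha-1 lie between 526 and 335 bp upstream, while the vha-11 peak of replicate 1 lies 184 bp downstream.

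The 4 pooled-list summits stood at a like distance from their starts, 335 to 526 bp upstream with a median of 418 bp. Over all 997 pooled promoter peaks, each measured to the nearest start whose window holds it, the median was 235 bp upstream and the quartiles 460 and 94 bp. Peaks farther upstream than these made up 36.0% of all promoter peaks for vha-12, 27.8% for vha-1 and 20.9% for vha-13. These 3 summits lay upstream of the median, and vha-13 alone among them was beyond the quartile. Measured in the same way, to the nearer C17H12.2 start, the vha-8 summit lay 167 bp upstream, closer to a start than the median.

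The replicates placed each of the 4 summits within 62 bp of each other, closer than the median for promoter peaks at vha-12 and vha-1 only. Their heights differed more clearly, except at vha-13. Between replicate 1 and replicate 2 the summits were 8 bp apart at vha-12, 10 bp at vha-1, 23 bp at vha-13 and 62 bp at vha-8, against a median of 22 bp over 983 pooled promoter peaks found in both. The log2 ratio of signal, replicate 1 over replicate 2, was 0.66 at vha-12, 0.14 at vha-13, -0.65 at vha-8 and -0.70 at vha-1. Over all 1904 pooled peaks found in both replicates this ratio had a median of 0.01 and an SD of 0.41. Ratios of smaller size were found at 89.4% of those peaks for vha-12, 89.1% for vha-8 and 91.4% for vha-1, but only 28.3% for vha-13. The heights at vha-12, vha-8 and vha-1 therefore repeated less well than at most pooled peaks, vha-12 being higher in replicate 1 and the others in replicate 2. Both replicates placed vha-12 and vha-8 above vha-13 and vha-1, though in replicate 1 vha-8 and vha-13 were nearly level at 52.23 and 51.53, and the order within each pair differed between the replicates.

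**Figure D3:**
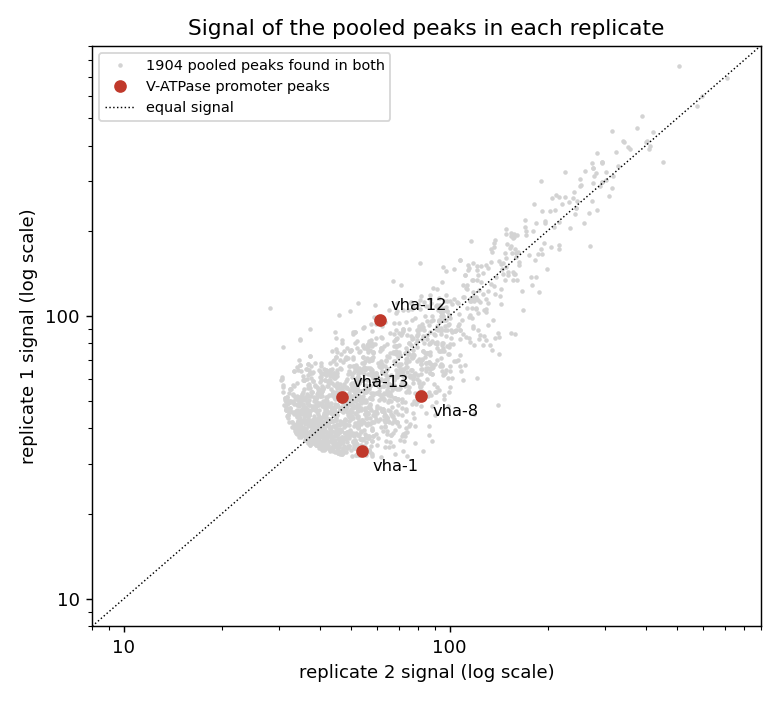
Signal of each pooled-list peak in replicate 1 (vertical) and replicate 2 (horizontal), both on log scales. Grey points are the 1904 pooled peaks found in both ranked lists, red points the peaks of the 4 V-ATPase genes, and the dotted line marks equal signal. vha-12 lies above the line, vha-13 near it, and vha-8 and vha-1 below it.

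The vha-13 gene sits among many peaks. Within 5 kb of the gene lay 7 pooled-list summits, a count that 14 of the 19973 coding genes (0.0701%) reached or passed; this window was looked at after the values were seen. Such windows overlap between neighbours: that of cept-2, the gene before vha-13, takes in the same 7 summits, so the count describes the region rather than vha-13 alone. Some of these peaks overlap, and counted as separate stretches they were 5, reached by 31 coding genes (0.155%). The other 9 V-ATPase genes had 0 or 1, and the median over all genes was 0. One summit lay inside vha-13 itself, in a coding exon 533 bp past the start, with a signal of 76.35 and a score of 892, and an overlapping one at 733 bp had a signal of 5.927. At the first of these places replicate 1 had 42.38 and replicate 2 had 34.35, both in ranked lists only.

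The rest of the cluster belongs by position to the neighbours of vha-13, all on the same strand. A summit with a signal of 139.8 lay 4294 bp upstream of vha-13 and 351 bp upstream of cept-2. One of 108.9 lay 2851 bp downstream, in a coding exon 150 bp into Y49A3A.3. A further pair, 78.87 and 24.16, lay 4247 and 4448 bp downstream, on either side of the start of cyn-1. By the replicates' own lists these peaks were split: the peaks at vha-13 and Y49A3A.3 passed the threshold in replicate 1 only, with 51.53 and 59.49, and those at cept-2 and cyn-1 in replicate 2 only, with 71.99 and 52.8. No peak of the cluster passed in both replicates.

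**Figure D4:**
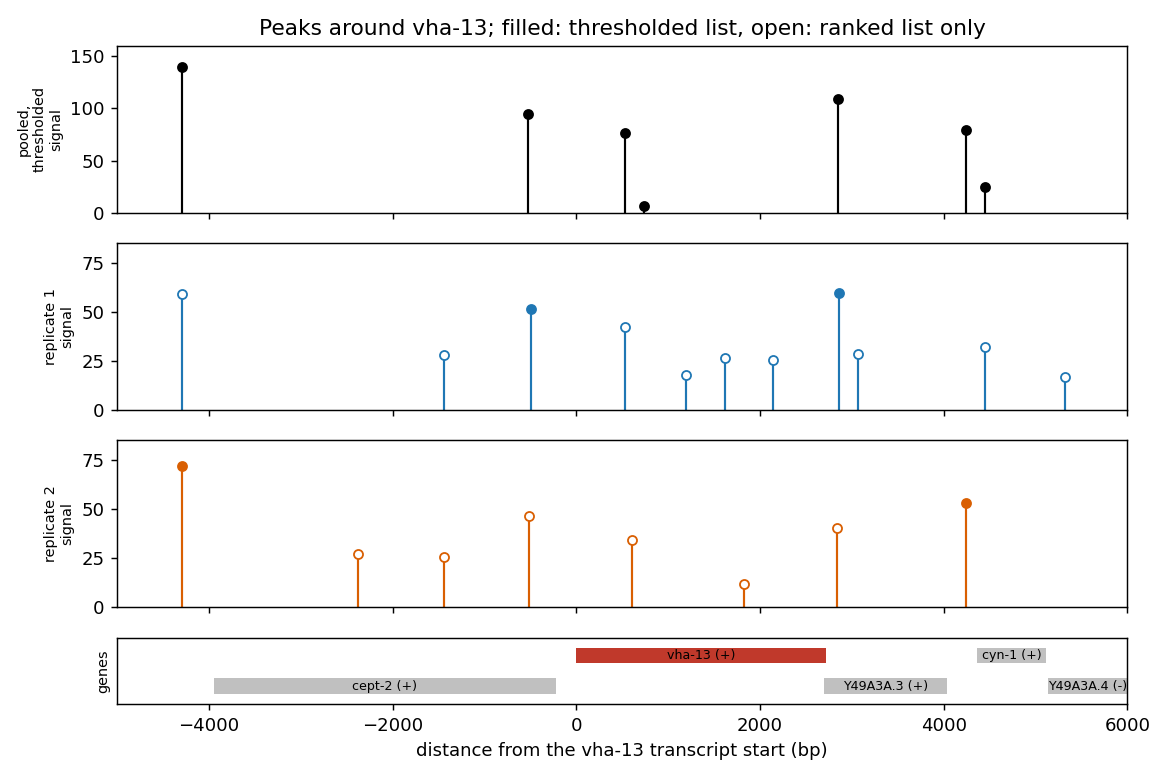
Peaks around vha-13 by distance of the summit from its transcript start (bp), with the authors' signal as height, for the pooled thresholded list and for replicate 1 and replicate 2. Filled heads are in a thresholded list, open heads in a ranked list only, and bars at the bottom are genes with their strand. Each replicate has 2 filled heads, and none of them share a place.

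The bases under the 4 summits were rich in G and C. Within 50 bp of the summit the GC content was 62.4% at vha-13, 56.4% at vha-12, 56.4% at vha-1 and 51.5% at vha-8, while 200 to 300 bp away on both sides it was 29.0%, 28.5%, 28.0% and 26.0% at the same genes. This is shared with the other promoter peaks rather than particular to these genes: over all 997 the summit median was 48.5%, with quartiles of 42.6% and 53.5%, the flank median was 35.5%, and 86.5% had more GC at the summit than in the flanks. The median of windows of the same size placed 235 bp upstream of every coding gene was 33.7%. Lower GC than at vha-13 was found at 97.1% of promoter peaks, than at vha-12 or vha-1 at 82.4%, and than at vha-8 at 61.5%. CpG dinucleotides numbered 14 at vha-13, 11 at vha-1, 9 at vha-12 and 6 at vha-8, against medians of 7 at promoter peaks and 3 in the promoter windows. The vha-11 peak of replicate 1 looked different, with 32.7% GC at the summit, 28.5% in the flanks and 3 CpG, and 5.62% of pooled promoter peaks had lower GC.

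**Figure D5:**
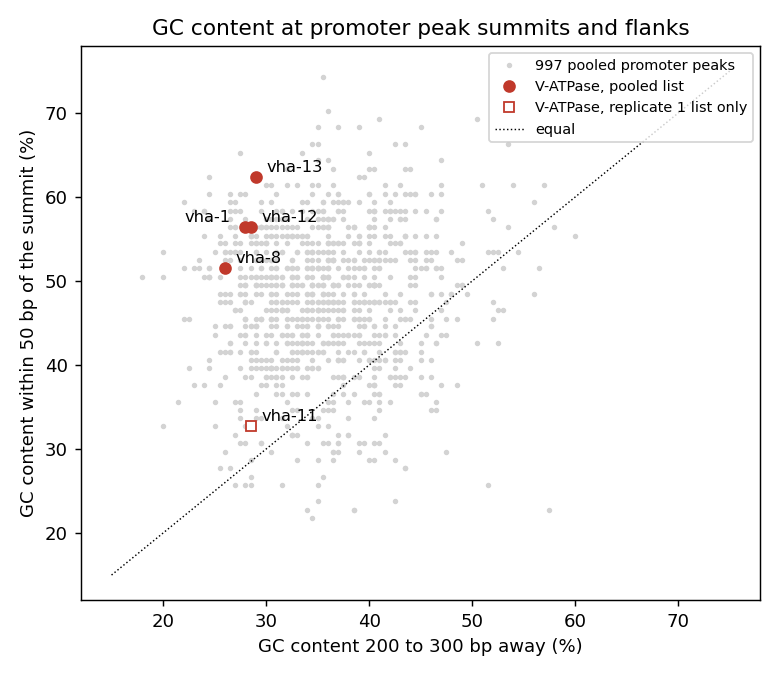
GC content within 50 bp of the summit (vertical, %) against GC content 200 to 300 bp away (horizontal, %). Grey points are the 997 pooled promoter peaks, filled red points the peaks of 4 V-ATPase genes, and the open square the vha-11 peak listed in replicate 1 only. The filled points lie far above the dotted line of equal content, and vha-11 lies near it.

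The capitals in the printed sequences show where the words fell. At vha-12, ACGCAG covered the summit itself, from 2 bases before to 3 bases after it, and occurred again 25 bases downstream, there followed by A so that CGCAGA overlaps it. At vha-8, CGCAGA began 7 bases past the summit, and at vha-1, ACGCAG began 34 bases before it. All of these read forward on the coding strand of the gene. Either word, searched on both strands, was present at 3 of the 4 summits, at 189 of all 997 promoter peaks and in 854 of the 19973 promoter windows (4.28%); counting them together was decided after the values were seen. CGCAGA by itself was at 140 promoter peaks and in 2.95% of windows, and ACGCAG, which overlaps CGCAGA by 5 bases, at 145 promoter peaks and in 2.71% of windows. At vha-13 neither word was found. The promoter windows were not matched for GC content, with a median of 33.7% against 48.5% at promoter peaks. Their shares are therefore not a like background for words rich in G and C.

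Letters known for factors that act on V-ATPase and lysosome genes were not found under the 4 summits. CACGTG, the E-box bound by HLH-30, the worm relative of TFEB, was at none of the 4, at 4.71% of promoter peaks and in 1.62% of windows, and TCACGTG, which contains it, at none, 3.21% and 0.751%. TGATAA was at none of the 4, at 4.11% of promoter peaks and in 10.8% of windows, and was found at the vha-11 peak of replicate 1, 29 bases past the summit. AAGGTCA, a half-site of nuclear hormone receptors, was at none of the 4, at 0.301% of promoter peaks and in 0.781% of windows. These counts say only which letters lie in windows of 101 bases, and here too the promoter windows were not matched for GC content.

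The other 12 V-ATPase genes had no promoter peak in the pooled list. The nearest to the threshold was unc-32, a neuronal form of subunit a, with a signal of 43.22 at 377 bp upstream and a score of 829, against the lowest listed score of 830. The start of the noncoding RNA ZK637.19, 350 bp from the summit, was nearer. Replicate 1 had 40.14 with a score of 130 at 270 bp, and replicate 2 had 32.82 with a score of 370 at 434 bp. A far higher peak, 286.4, stood 1327 bp upstream of unc-32 and 157 bp upstream of lin-9, whose start was nearer. The gene vha-18, the other H subunit, had 53.97 at 311 bp upstream with a score of 343 in the pooled ranked list, 23.27 in replicate 1 and 37.15 in replicate 2, in a region it shares with pos-1.

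The remaining V-ATPase genes had lower scores than these 2 in the pooled ranked list. For vha-9 and vha-10, subunits F and G, the highest pooled ranked signals were 39.81 and 43.77, for vha-16 39.81, and for spe-5, a form of B used in sperm, 37.21. For vha-14, subunit D, vha-4, subunit c'', vha-7, a further form of a, and vha-20 they lay between 19.17 and 28.2, and for vha-19 the value was 8.461. For vha-17, subunit e, none of the 7 lists used held a promoter peak, as at vha-6. The V-ATPase genes, which include alternative forms of the same subunit, thus ranged from no listed peak to a signal of 168.3 in the same animals.

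Other gene lists around the pump, set with earlier results of these data known, had these counts in the pooled list, against 5.78% of coding genes. Of 55 lysosomal genes, 4 had a promoter peak (7.27%): vps-39, of the HOPS tethering complex, with a signal of 297.6, rab-7, a late endosomal GTPase, with 242.0, lmtr-3, of the Ragulator complex that needs the V-ATPase in mammals, with 115.4, and imp-2, a membrane protease, with 110.8. The peaks of rab-7 and imp-2 lay nearer to other starts, those of W03C9.5 and enpl-1. Of 24 genes for other ion pumps, 1 had a peak (4.17%), eat-6, the sodium pump, with 87.66, and that peak was nearer to B0365.10. Of 11 genes that regulate the V-ATPase or lysosomes, 3 had one (27.3%): daf-16, the FOXO factor, with 223.8, nhr-49, a nuclear receptor, with 112.7, and skn-1, the Nrf factor, with 96.37. The vps-39, rab-7 and daf-16 peaks were higher than any promoter peak of a V-ATPase gene. The daf-16 summit lay 52 bp into H36N01.1, whose start was nearer.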

How the data were processed

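Peak lists from ChIP-seq of K11D2.4-eGFP in 2 biological replicates of whole young adults were used, 7 of the 8 deposited lists. Per the labels and the file headers, the authors mapped to ce11 and deposited IDR ranked and IDR thresholded lists for each replicate and for the replicates together; the sources used here name no aligner, peak caller or read depth. The deposited signal is the seventh column of each list, taken as the authors' peak height in an unstated scale, and the deposited score, at most 1000, was taken to follow the IDR. All 1927 rows of the pooled list occur in the pooled ranked list used. In each ranked list, 10 columns with no header were not used.

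Summits were assigned to genes of Ensembl release 115 on the same build, with a promoter of 1000 bp before to 200 bp after each transcript start. Gene products are those of RefSeq. Replicate signals are those of the highest ranked-list peak that overlaps a pooled peak. GC content and words were read within 50 bp of summits. Python 3.11.15, numpy 2.4.6, pandas 2.3.3 and matplotlib 3.10.9 were used, and the assignment was tested on simulated peaks. With 1 group no test between groups was possible, and replicate spread is the only error given.

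The genes, lists and words were chosen with earlier results of these data known. All 10 genes are named with their values, and of the other V-ATPase genes and lists every gene with a pooled-list promoter peak. Alternatives were the second pooled list, each replicate's own list, the 50% of peaks with the highest signal, other promoter widths, the nearest start only, the middle of the peak, and wider windows for GC.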

Additional observations from a re-analysis of the deposited data

How the results depend on the processing

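Over 49 alternative values for 7 descriptions, 6 of the 10 V-ATPase genes and 1 of all 22, 34 stayed close to the main value and 15 moved beyond the replicate spread or 1.5 times. The number of genes with a promoter peak was 4, or 3 in the list of either replicate alone, 3 with a promoter of 500 bp upstream to 100 bp downstream, 5 with 2000 bp to 500 bp, and 2, vha-12 and vha-8, with only the 50% of peaks of highest signal. Over all V-ATPase genes it moved to 2 with those 50% and to 7 with the wide promoter, which adds vha-2, vha-18 and unc-32. The number of genes nearest to their own peak moved to 1 with the 50%. The median signal, 119.0, was 51.53 to 61.07 without replicate 1 or 2, where it comes from the other replicate's list and its own scale, 155.9 with the 50%, 143.6 with the narrow promoter and 94.46 with the nearest start only. The median distance, -418 bp, was -417 to -329 bp without either replicate and -377 bp with the 50%. The median GC content, 56.4%, was 55.4% to 59.4% without either replicate, 54.0% with the 50% and 50.7% in windows of 200 bp. The median log2 ratio of the replicates, -0.25, changed sign to 0.66 with thresholded lists only, where vha-12 is the one gene that both hold. No paired analysis was possible because there is 1 group. Unknown depth limits what a missing peak can show.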
